A study of Mus musculus with 16 samples.

Results

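The otic placode and the placodal ectoderm of chimeric mouse embryos were examined as 2 cell types, kept apart throughout. Members were the singlet cells that passed the authors' quality filter and carried the authors' transferred label Otic placode or Placodal ectoderm. There were 437 such cells, 116 otic and 321 placodal, among 37841 cells of all types. The cells came from chimeras made by injecting *Stat3* null CD1 embryonic stem cells with a tdTomato reporter into wild-type CD1 blastocysts. In the null allele a neomycin resistance cassette replaces part of *Stat3*, and the WT cells are those of the host embryo. Embryos of the stages E7.5, E8.5 and E9.5 (days of embryonic development) had no further treatment, and cells were sorted by tdTomato before single-cell RNA sequencing. A null cell here came from the tdTomato-positive sort, and a WT cell from the negative sort with no tdTomato transcript. The 16 libraries comprised 2 null and 2 WT libraries each for E7.5 and E8.5 and 4 of each genotype for E9.5, called A to D within a group. Both fractions of a pool shared their embryos, so null and WT cells of these tissues grew side by side in the same heads, and genotype cannot be told apart from the origin of the cells (cultured stem cells against host blastocyst). Embryos were pooled before E9.5. The number of stem cell clones and the pool behind each library were not given in the sources used here, and the methods describe fewer E9.5 embryos than E9.5 libraries of a genotype, so n counts libraries and p-values measure the spread between them.

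Cranial placodes are thickenings of the embryonic ectoderm that form around the anterior neural plate and give rise to the sense organs and sensory ganglia of the head. A shared field marked by Eya coactivators is divided into anterior placodes (lens, olfactory and pituitary), which use *Pax6*, *Six3* and Pitx genes, an intermediate trigeminal placode with *Pax3*, and posterior otic and epibranchial placodes with *Pax2* and *Pax8*. The otic placode thickens, invaginates into a cup and closes as the otic vesicle, the source of the inner ear, between the stages sampled here. STAT3 carries signals of the LIF and IL-6 family of cytokines to the nucleus and is restrained by its own target *Socs3*.

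*Stat3* transcripts were scarce in both tissues whatever the sort. The otic placode held 8 *Stat3* UMIs (unique molecular identifiers, each a counted transcript) in all its libraries, and the placodal ectoderm held 15. Levels are given as CPM, the UMIs of a gene among each 1000000 UMIs summed over the cells of a type in a library. On this scale *Stat3* lay between 0 and 10.99 CPM in the otic libraries and between 0 and 7.76 CPM in the placodal libraries. Null libraries held 4 of the otic UMIs and 6 of the placodal ones. Counts per gene cannot show which exons were read, so the gene's count did not check the deletion, and it was too low to be tested. The sort was checked by the reporter instead. A tdTomato UMI was found in 72.3% of all cells of E8.5 null B and in 89.8% of those of E8.5 null A, against over 96% in every other null library.

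Some libraries stood apart. In E8.5 null B, *Grb10* was at 166 CPM in the otic and 264 CPM in the placodal cells, within or near the WT range of 164 to 341 CPM, whereas no other null library exceeded 67.1 CPM. Restricting E8.5 null B to cells with a tdTomato UMI left *Grb10* at 166 and 274 CPM. E9.5 WT C and D shared 292 cell barcodes out of 1904 and 3954 cells, where the next pair of libraries shared 8. Of those shared barcodes, 10 had the same cell type in both libraries, and 6 member cells carried one. *Xist*, the RNA that coats the silenced X chromosome of female cells, also split the libraries and was left out of the tests. In placodal cells it was at 731 and 558 CPM in E9.5 WT B and C and at 1.08 and 0 CPM in E9.5 WT A and D, and in otic cells at 578 and 731 CPM against 0 and 3.02 CPM. Within E8.5 WT it was at 0 in A and at 133 CPM in the placodal cells of B. Among E9.5 null placodal libraries it was at 103 CPM in B and at most 3.40 CPM in the others. Otic cells of E9.5 null differed from this, with 34 *Xist* UMIs in C and 0 in A, B and D. Whether E9.5 WT A and D, or B and C, come from 1 embryo cannot be told from the sources used here, and n may overstate the number of embryos. Counts of called genes without E8.5 null B, E9.5 WT C or E9.5 WT D are given beside most results they touch, and ranges for all at the end.

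The cells were deeply read but few. The median otic cell had 35206.5 UMIs and the median placodal cell 29979. Each library contributed between 126459 and 1390722 UMIs to the otic sums and between 156535 and 2432885 to the placodal sums. At E8.5 the otic placode was represented by 12 and 16 WT cells and by 12 and 4 null cells. At E9.5 it held 9, 4, 4 and 9 cells in WT A to D and 34, 3, 3 and 6 in null A to D. The placodal ectoderm held 31 and 48 WT cells and 42 and 15 null cells at E8.5. At E9.5 it held 25, 13, 11 and 29 cells in WT A to D and 73, 17, 6 and 7 in null A to D. At E7.5 no otic cell was found, and 4 placodal cells occurred in null A. The label was less secure for the otic cells, whose median mapping score was 0.64 on a scale where 1 means that every atlas neighbour agreed, against 0.92 for the placodal cells.

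Otic markers were high in the cells with the otic label. That label was itself transferred by similarity of expression to an atlas, so the levels describe the cells and are no separate test of the label. Among 80 cell types with at least 50 cells, the otic cells had the highest level of *Eya1* (85.0 CPM), a coactivator of the placodal field, and of *Lmx1a* (75.3 CPM), *Hmx3* (48.2 CPM) and *Tbx2* (132.5 CPM), regulators of otic vesicle patterning. *Pax2* (55.3 CPM) and *Pax8* (30.1 CPM) were at rank 3, with the kidney primordium highest. *Sox9*, a factor needed for otic invagination, lay between 204 and 683 CPM in all 12 libraries that held otic cells. Its level was 427 CPM over all otic cells, second to the notochord.

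The placodal ectoderm did not carry all of the markers given for it. *Eya1* was present (61.5 CPM, rank 4 of 80), but *Pax2* was at 5.03 CPM (rank 19) and *Pax8* at 1.91 CPM (rank 23), and *Foxi3*, a regulator of the preplacodal region, was at 0.101 CPM. The genes that stood out were those of anterior placodes. *Six3* (228.6 CPM) and *Pitx1* (206.0 CPM) ranked second among all types, and *Six6* (89.6 CPM) was at rank 3. *Dlx5*, a homeobox gene of the wider placodal field, was highest of all types (150.8 CPM), with the otic placode second (116.7 CPM). The cells are called placodal ectoderm here by that rule, with *Eya1* and anterior genes as their markers and without *Pax2* or *Pax8*.

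**Figure D1:**
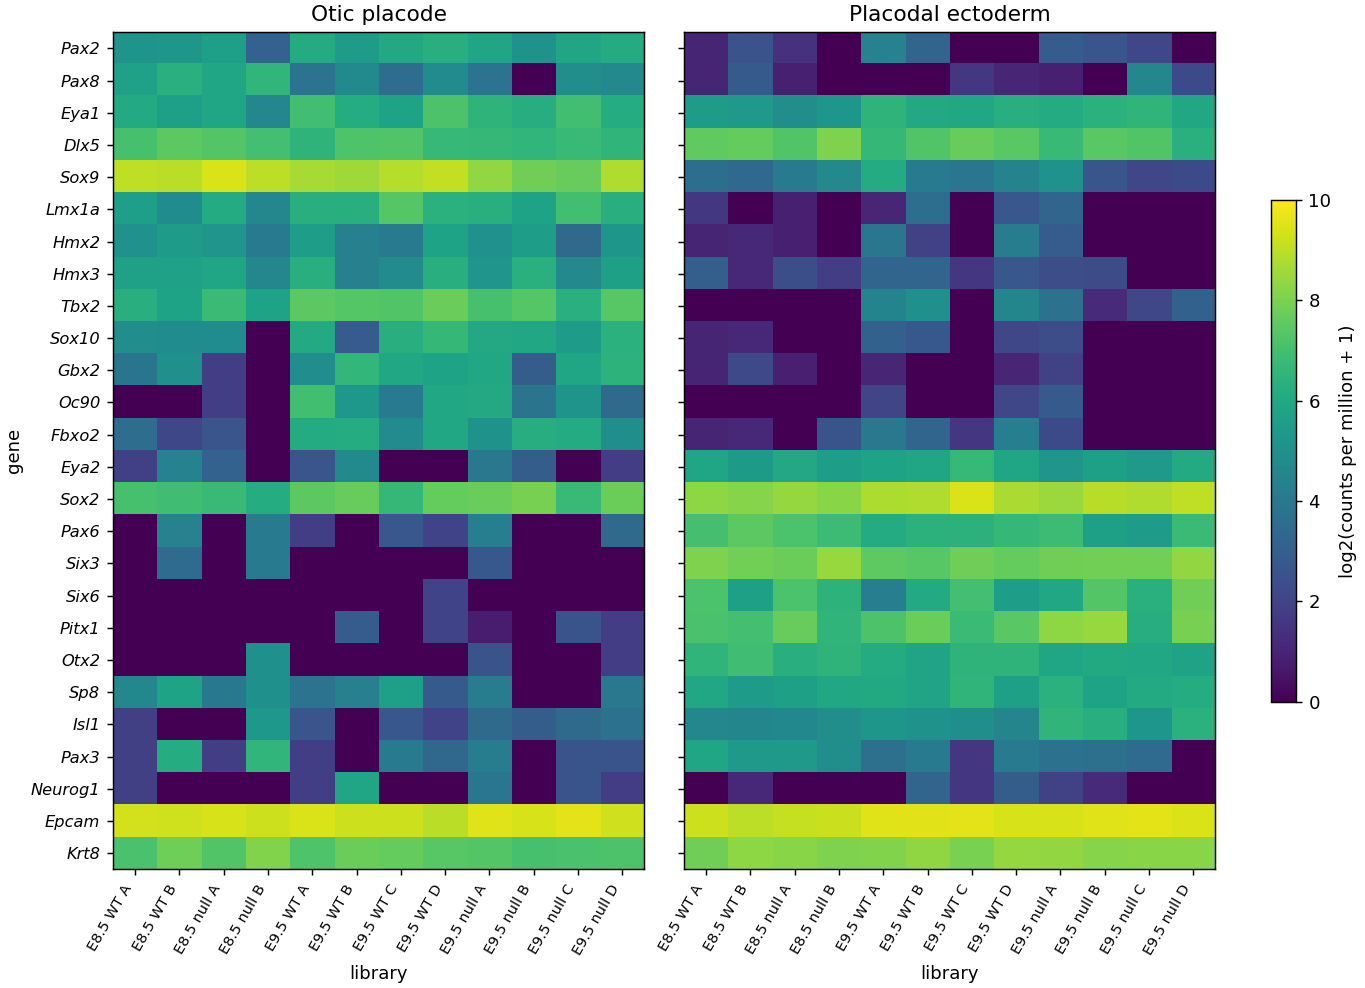
Heat map of log2(CPM + 1) for 26 marker genes (rows) in the 12 libraries with cells at E8.5 and E9.5 (columns), for the otic placode (left) and the placodal ectoderm (right). *Sox9*, *Lmx1a*, *Hmx3* and *Tbx2* are high in the otic panel, *Six3*, *Pitx1* and *Pax6* in the placodal panel, and *Eya1* and *Dlx5* in both.

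The otic and the anterior genes were largely detected in separate cell types. The labels were assigned by expression, so this split follows in part from them and is given as a description. Each cell was thinned to 10000 UMIs, which left out none of the cells at E8.5 and E9.5, and erythroid cells, which should lack these genes, served as background. *Sox9* was detected in 88.8% of 116 otic cells (95% Wilson interval 81.8% to 93.3%), 13.9% of 317 placodal cells and 1.80% of 2172 erythroid cells. *Pax2* was detected in 34.5%, 3.79% and 0.276% of these cells and *Pax8* in 25.9%, 1.58% and 0.184%. *Six3* showed the opposite order, at 3.45% of otic, 82.6% of placodal and 0.599% of erythroid cells. *Pax6* was detected in 63.4% of placodal and 4.31% of otic cells. *Pitx1* was detected in 56.8% of placodal cells and in 0 of 116 otic cells, where the limit of 2.59% that a count of 0 allows holds only for cells thinned to this depth, since 4.31% had a UMI before thinning. Without thinning the shares were 96.6%, 29.0% and 5.52% for *Sox9*, 6.90%, 93.1% and 1.84% for *Six3*, and 4.31%, 68.1% and 3.08% for *Pitx1*, at median depths of 35206.5, 29934 and 34116 UMIs. *Lmx1a* is less clean as a per-cell marker, since 7.23% of erythroid cells had a UMI, against 44.0% of otic and 1.58% of placodal cells. Intervals and limits cover counting error only.

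Genes of a region were detected together in single cells about as often as their separate shares give. *Pax6* and *Six3* were both detected in 83 of 136 placodal cells at E8.5 and in 87 of 181 at E9.5 after thinning, where the product of the shares gives 83.6 and 83.4 cells. The posterior pair *Pax2* and *Pax8* was detected together in 0 placodal cells at either stage and in 5 of 44 and 4 of 72 otic cells (6 and 3.11 from the shares). *Sox9* and *Lmx1a* were both detected in 13 of 44 otic cells at E8.5 and in 36 of 72 at E9.5 (11.5 and 33.8 from the shares).

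Markers of endothelium, erythroid cells and endoderm were low in both types. The neural crest list in otic cells and the neural tube list in placodal cells were higher. In otic libraries the summed levels of the endothelial, erythroid and endodermal markers reached at most 2.88, 10.4 and 12.9 CPM, with *Tie1* at 0. Neural crest markers summed to between 79.1 and 214 CPM, and this list includes *Sox10*, which the otic vesicle also expresses. In placodal libraries the neural tube list, which includes *Pax6*, summed to 171 to 217 CPM in E8.5 WT, 135 to 195 CPM in E8.5 null, 183 to 228 CPM in E9.5 WT and 105 to 167 CPM in E9.5 null, so the E9.5 groups did not overlap. Mesenchyme markers summed to at most 82.7 CPM in otic and 76.8 CPM in placodal libraries. Haemoglobin differed between stages and genotypes. *Hba-x*, an embryonic globin, lay at 540 and 603 CPM in E8.5 WT otic cells, 384 and 182 CPM in E8.5 null, 38.9 to 241 CPM at E9.5 in WT and 0 to 12.6 CPM at E9.5 in null. In placodal cells *Hba-x* lay at 501 and 606 CPM in E8.5 WT, 456 and 177 CPM in E8.5 null, 56.4 to 286 CPM in E9.5 WT and 0 to 15.2 CPM in E9.5 null. Its part in the results below was not tested, and globin genes were left out of the gene tests.

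The first comparison asked whether null cells entered these tissues as often as host cells did. No difference in share passed the test in either type. The otic placode made up 0.445% ± 0.0378 (SD, n = 2 libraries) of WT and 0.331% ± 0.0254 (n = 2) of null cells at E8.5. At E9.5 it made up 0.220% ± 0.0579 (n = 4) of WT and 0.372% ± 0.298 (n = 4) of null cells. The placodal ectoderm made up 1.24% ± 0.0257 of WT and 1.20% ± 0.151 of null cells at E8.5. Its shares at E9.5 were 0.654% ± 0.145 in WT and 0.805% ± 0.604 in null. In edgeR's quasi-likelihood test over all cell types of a stage, the log2 ratio of null to WT was -0.45 (SE 0.45, adjusted p = 0.989) for otic and -0.07 (SE 0.39, adjusted p = 0.989) for placodal cells at E8.5. It was 0.81 (SE 0.56, adjusted p = 0.995) for otic and 0.35 (SE 0.48, adjusted p = 0.996) for placodal cells at E9.5.

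One library carried the E9.5 null values. E9.5 null A held 73.9% of the otic and 70.9% of the placodal null cells of that stage. Its otic share was 0.786% (95% Wilson interval 0.563% to 1.10%), above the 0.124% to 0.388% of the other null libraries and the 0.151% to 0.292% of WT. Without E9.5 null A the log2 ratio was -0.04 for otic and -0.37 for placodal cells, and neither passed the test. Without E8.5 null A the placodal log2 ratio at E8.5 was 0.10.

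**Figure D2:**
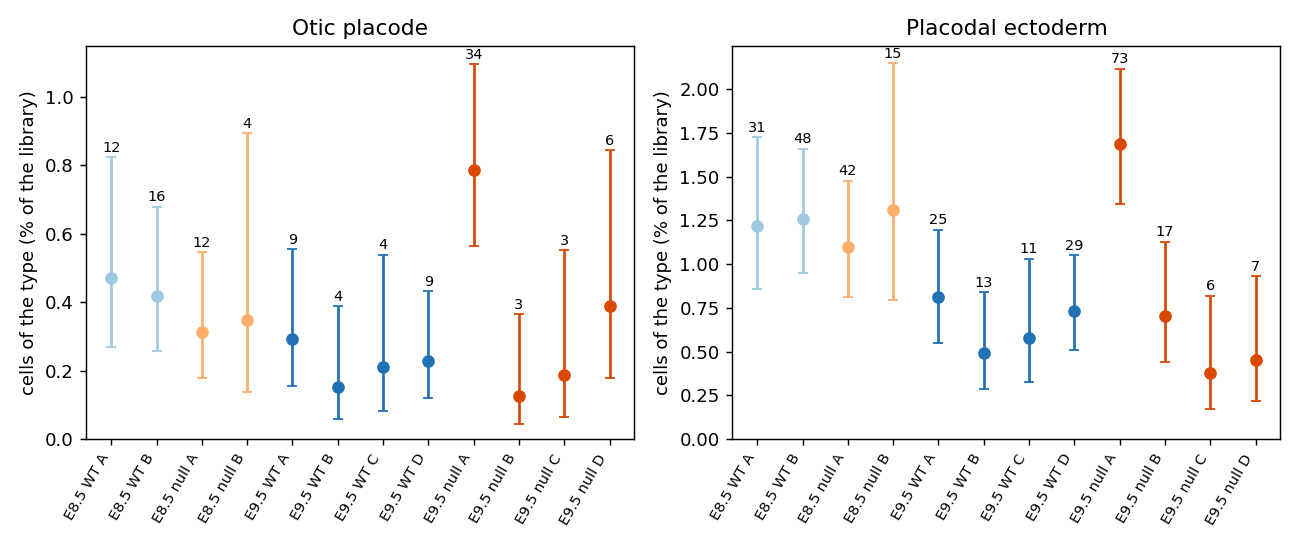
Share of each library's cells (percent, y axis) labelled Otic placode (left) and Placodal ectoderm (right), 1 point per library with its 95% Wilson interval and the number of cells above it. E9.5 null A has the highest otic share (0.786%) and the highest placodal share (1.69%). Libraries of E7.5 are not drawn.

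The second comparison followed the host cells from E8.5 to E9.5, on UMI counts summed per library. A gene was called where edgeR's quasi-likelihood test gave an adjusted p under 0.05 and an absolute log2 fold change over 1. In the WT otic placode 57 genes were called among 5526 (1.03%), of which 34 were higher and 23 lower at E9.5. The collagen genes *Col9a1* and *Col9a2* and the regulators *Tbx2* and *Jag1* were among those that rose, and *Pax8*, *Hapln1*, *Slc2a1* and *Ldha* among those that fell. Of 34 genes listed for otic patterning, 27 were tested, 5 rose (*Col9a1*, *Jag1*, *Fbxo2*, *Tbx2* and *Tbx3*), none fell and 22 were not called, where 0.615% of all genes tested were called higher. The median log2 fold change of the tested members was 0.99, beside 0.03 over all genes tested. *Tbx3* and *Oc90*, at 0 in both E8.5 WT libraries, passed the count filter only through E9.5 libraries and could only rise. The number of rises and the median are thus a description and no test of the list.

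*Col9a1*, a chain of the fibril-associated collagen IX of the inner ear and cartilage (chr1:24177610-24252684, GRCm38), was at 8.18 and 0 CPM in the E8.5 WT libraries and at 89.0, 38.9, 60.5 and 45.3 CPM in E9.5 WT A to D. The groups did not overlap (log2 fold change 3.55, SE 0.64, adjusted p = 3.69e-04). Its partner chain *Col9a2* went from 8.18 and 3.47 CPM to between 44.0 and 90.9 CPM (log2 fold change 3.31, SE 0.57, adjusted p = 2.04e-04). *Fbxo2*, a ubiquitin ligase subunit abundant in the inner ear, went from 10.9 and 3.47 CPM to between 27.5 and 71.4 CPM (log2 fold change 2.81, SE 0.58, adjusted p = 0.00259). All 3 genes were higher in every E9.5 library than in either E8.5 library, which for *Col9a2* was a condition of being named here.

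The T-box repressor *Tbx2* was at 76.4 and 55.5 CPM at E8.5 and between 154 and 209 CPM at E9.5 (log2 fold change 1.29, SE 0.27, adjusted p = 0.00333). *Tbx3*, its close relative, was at 0 in both E8.5 libraries and between 10.99 and 64.9 CPM at E9.5, at least 7.91-fold higher when the 0 is set to 3 counts over the group. *Jag1*, the Notch ligand of the prosensory patch, went from 46.4 and 24.3 CPM to between 75.5 and 128 CPM (log2 fold change 1.36, SE 0.33, adjusted p = 0.0155). *Slitrk6*, a membrane protein required for innervation of the inner ear, was also at 0 at E8.5 and reached 16.5 to 96.8 CPM at E9.5, at least 16.03-fold higher. *Oc90*, the main protein of otoconia, was at 0 at E8.5 and between 16.5 and 126 CPM at E9.5, but it was not called (adjusted p = 0.183).

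Several of the otic markers given above were not called. *Pax2* was at 35.5 and 38.1 CPM at E8.5 and between 45.4 and 78.6 CPM at E9.5, without overlap, but was not called (log2 fold change 0.77, SE 0.37, adjusted p = 0.332). *Sox9* was at 526 and 503 CPM and then between 383 and 541 CPM (adjusted p = 0.620). *Lmx1a* (log2 fold change 1.15, adjusted p = 0.115) and *Eya1* (0.73, adjusted p = 0.292) were not called. None of the 8 tested genes of the pan-placodal list was called, where 1.03% of all genes tested were, so nothing about the list is read from it.

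*Pax8*, a paired-box factor of the early otic and epibranchial field (chr2:24420560-24475599), fell from 51.8 and 79.7 CPM to 13.1, 26.0, 10.99 and 27.2 CPM. All 4 E9.5 libraries lay below both E8.5 libraries (log2 fold change -1.86, SE 0.45, adjusted p = 0.0130). *Pax8* was 1 of 4 tested genes of the posterior placode list, and the other three were not called, where 0.416% of all genes tested were called lower. *Ets1* (48.8 to 3.68 CPM on average), a transcription factor also used by neural crest and endothelium, fell with a log2 fold change of -3.40 (SE 0.80, adjusted p = 0.0108), a call lost without E8.5 WT A (0.153), E8.5 WT B (0.105) or E9.5 WT A (0.0781). It was the one called gene of 4 tested in the neural crest list, whose median log2 fold change was 0.49, opposite to *Ets1*. *Sox10* of that list was at 29.998 and 27.7 CPM at E8.5 and at 68.0, 6.49, 76.9 and 99.7 CPM in E9.5 WT A to D. Of the matrix genes, *Has2*, a hyaluronan synthase, fell by 4.43 on the log2 scale (SE 1.09, adjusted p = 0.0167) and *Hapln1*, which links hyaluronan to proteoglycans, by 3.31 (SE 0.44, adjusted p = 1.54e-06). *Has2* was at 10.9 and 83.2 CPM in E8.5 WT A and B, and its call was lost without E8.5 WT B (log2 fold change -2.45, adjusted p = 0.735) and without E9.5 WT A (0.0954), while *Hapln1* kept its call in all 12 alternatives. Outside the lists, the largest rises at non-overlapping levels after *Col9a2* included the growth factor *Pdgfc* (log2 fold change 3.30), the creatine kinase *Ckb* (3.11), the chromatin regulator *Arid5b* (2.81), the isocitrate dehydrogenase *Idh1* (2.55) and the cell cycle kinase *Cdk2* (2.53), and the falls included *Tulp3* (-1.81), a regulator of ciliary traffic, and the keratin *Krt23* (-1.64). Many of these calls were unstable. Of 12 alternatives *Cdk2* kept its call in 3, *Ckb* in 6, *Pdgfc* in 8, *Tulp3* and *Krt23* in 9, and *Arid5b* and *Idh1* in 11. DESeq2 lost *Cdk2* (adjusted p = 0.308), *Ckb* (0.279), *Pdgfc* (0.167), *Tulp3* (0.142) and *Krt23* (0.138), and of the genes above it lost *Pax8* (0.0947) and *Jag1* (0.127).

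**Figure D3:**
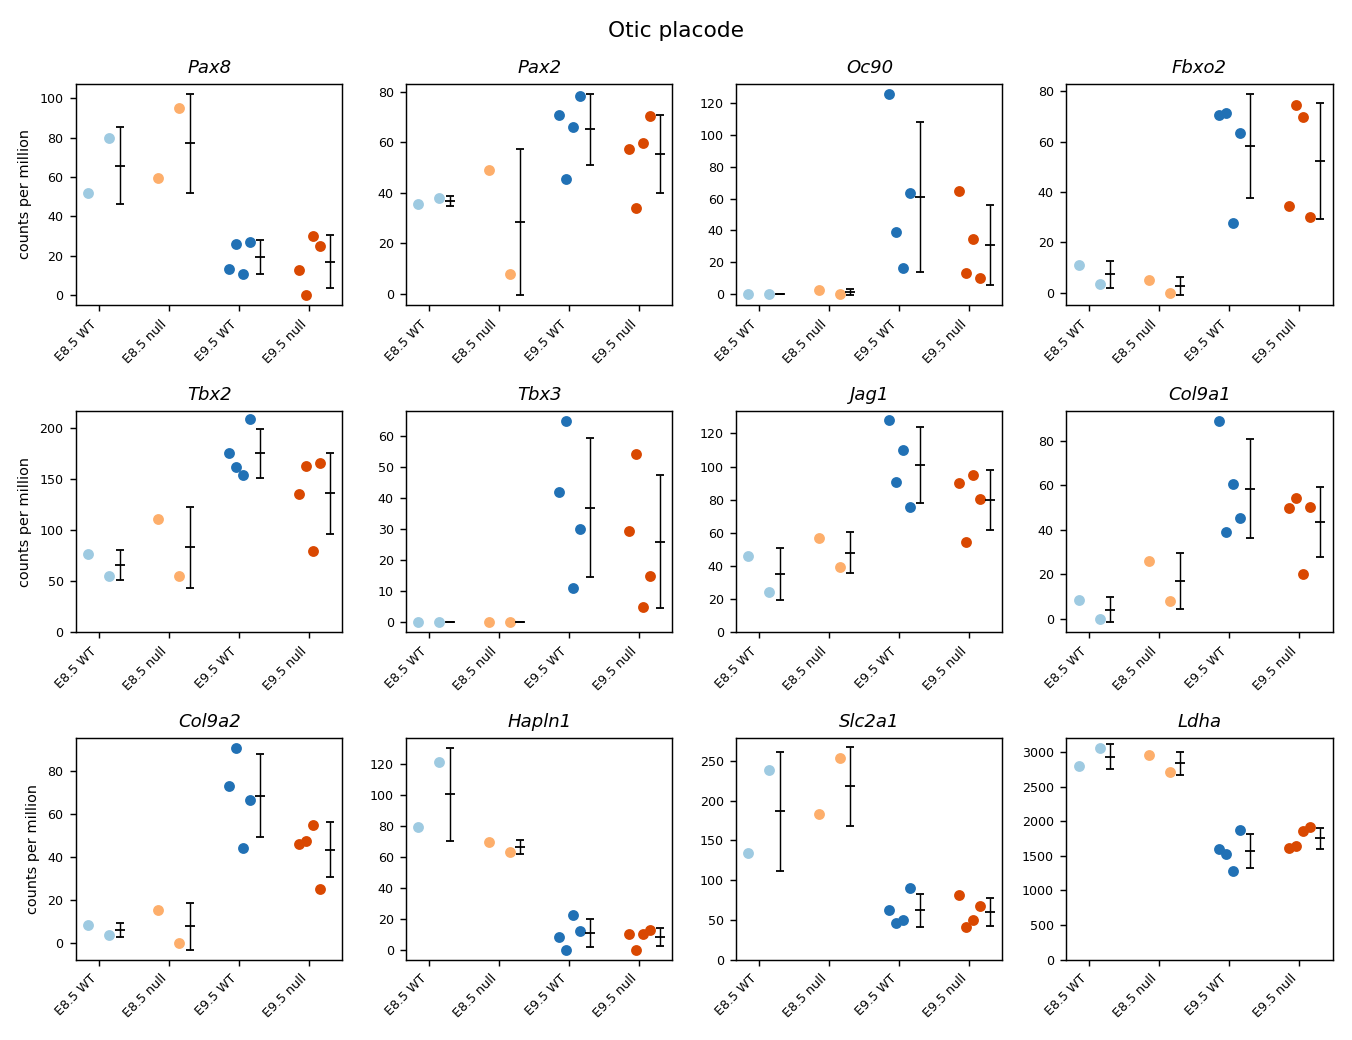
Levels of 12 genes in the otic placode (CPM, y axis, linear from 0), 1 point per library in the 4 groups, with mean ± SD at the right of each group. *Fbxo2*, *Tbx2*, *Tbx3*, *Jag1*, *Col9a1* and *Col9a2* are higher and *Pax8*, *Hapln1*, *Slc2a1* and *Ldha* lower at E9.5 in WT, and *Pax2* and *Oc90* were not called.

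Some genes of glucose uptake and glycolysis fell in the WT otic placode. A list of 17 genes, most of them of these pathways, was drawn up after the values had been seen, so it is a description only. It also held genes outside glucose uptake and glycolysis, among them *Bnip3* and *Fam162a*. Of 16 tested, 6 fell, none rose and 10 were not called, with a median log2 fold change of -0.85 beside 0.03 over all genes tested, of which 0.416% were called lower. *Slc2a1*, the glucose transporter GLUT1, was at 134 and 239 CPM at E8.5 and between 45.4 and 90.7 CPM at E9.5 (log2 fold change -1.59, SE 0.27, adjusted p = 2.04e-04). *Ldha*, the lactate dehydrogenase chain of glycolytic cells, went from 2803 and 3061 CPM to 1602, 1532, 1286 and 1874 CPM (log2 fold change -1.01, SE 0.11, adjusted p = 5.14e-08). The other called members were the glycolytic enzyme *Aldoa* (-1.10), the lactate exporter *Slc16a3* (-1.42) and the mitochondrial proteins *Bnip3* (-1.22) and *Fam162a* (-1.29). *Aldoa* and *Fam162a* kept their calls in all 12 alternatives, whereas *Bnip3* kept its call in 8 and was lost with DESeq2 (adjusted p = 0.0789). In null otic cells *Ldha* was at 2955 and 2720 CPM in E8.5 null and between 1611 and 1917 CPM in E9.5 null. In the same step *Bpgm* and *Car2*, enzymes that erythrocytes also carry, fell by 2.04 and 1.85 on the log2 scale, and *Hba-x* fell as given above, while the erythroid marker list stayed at or under 10.4 CPM. The part of transcripts from other cells in these falls was not tested.

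The promoters of the 6 called genes were searched because all 6 were lower at E9.5, and they were picked for having passed the test. RefSeq windows (GRCm38.p6) from 250 bases before to 50 after each annotated start were searched for ACGTG on both strands, the core of the hypoxia response element. The motif overlaps the palindromic E-box, which counts once on each strand. All 6 genes were in the table, and 7 of their 9 windows held a match, beside 19.6% of 32851 promoters of the same length. Counted by gene, 6 of 6 had a match in some window, beside 21.8% of 27025 genes. Of the other 11 listed genes, which were not called or not tested, 6 had one, in 6 of 14 windows (42.9%). A match was thus not limited to the called genes, and nothing about the falls is read from it. A match describes letters and is no evidence of binding. The 3 windows with more than 1 match are printed 5′ to 3′ with the matches in capitals, for *Ldha* (chr7:46845554-46845853, plus strand, 5 matches), *Bnip3* (chr7:138909457-138909756, minus strand, 2 matches) and *Slc16a3* (chr11:120948817-120949116, plus strand, 2 matches).
Ldha: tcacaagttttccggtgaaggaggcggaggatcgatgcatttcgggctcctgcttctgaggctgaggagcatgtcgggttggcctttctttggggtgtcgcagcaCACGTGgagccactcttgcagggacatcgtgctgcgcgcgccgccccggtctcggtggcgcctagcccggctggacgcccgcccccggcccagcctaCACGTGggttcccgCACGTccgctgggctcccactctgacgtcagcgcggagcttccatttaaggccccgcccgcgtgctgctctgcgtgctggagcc
Bnip3: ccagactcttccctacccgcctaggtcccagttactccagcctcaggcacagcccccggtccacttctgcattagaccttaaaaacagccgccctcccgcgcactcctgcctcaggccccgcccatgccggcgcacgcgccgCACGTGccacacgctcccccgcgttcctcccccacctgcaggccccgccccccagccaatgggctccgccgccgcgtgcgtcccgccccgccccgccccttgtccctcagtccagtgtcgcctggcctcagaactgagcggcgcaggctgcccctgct
Slc16a3: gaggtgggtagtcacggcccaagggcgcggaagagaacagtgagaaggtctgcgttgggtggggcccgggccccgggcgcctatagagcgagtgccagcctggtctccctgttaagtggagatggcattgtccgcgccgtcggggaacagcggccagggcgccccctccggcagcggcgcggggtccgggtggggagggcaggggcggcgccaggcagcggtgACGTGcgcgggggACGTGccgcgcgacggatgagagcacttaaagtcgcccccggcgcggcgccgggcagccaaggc

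The otic stage result leaned on single libraries. Without E8.5 WT B, which held 16 of the 28 WT cells at E8.5, 18 genes were called. Among those that lost the call were *Pax8* (adjusted p = 0.319), *Col9a1* (0.0634), *Fbxo2* (0.154), *Tbx2* (0.197), *Tbx3* (0.0959), *Jag1* (0.404) and *Slc2a1* (0.134), while *Ldha* kept its p but fell under the fold threshold (log2 fold change -0.97). Without E9.5 WT C or D the count was 59 in each case. Without E9.5 WT A 36 genes were called, and *Pax8* (0.0797) and *Jag1* (0.102) were lost. Without E8.5 WT A *Tbx3* (0.131) was lost. *Slitrk6* was lost without E8.5 WT A (0.215), E8.5 WT B (0.224), E9.5 WT A (0.0695) or E9.5 WT D (0.0539).

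The step from E8.5 to E9.5 was then followed in the WT placodal ectoderm. Libraries with more than 15 cells entered, which left both E8.5 WT libraries and E9.5 WT A and D. The E9.5 libraries tested were thus the pair with almost no *Xist*, set against E8.5 libraries of which one had it. The test over 8510 genes called 274 (3.22%), with 179 higher and 95 lower at E9.5. With libraries of more than 5 cells, which takes in E9.5 WT B and C, 251 genes were called, 207 of them among the 274. *Tgfb2*, *Socs2*, *Eya4* and 7 genes of the otic patterning list rose, and *Pax3*, *Tfap2a* and the carbonic anhydrases *Car2* and *Car4* fell. *Cdh1*, the epithelial cadherin and 1 of 9 surface ectoderm genes tested, fell by 1.22 on the log2 scale (adjusted p = 0.0051), a call lost with DESeq2 (0.225) and without E8.5 WT A (0.0648) or E9.5 WT A (0.0812). Of the anterior placode regulators tested, 1 was called.

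*Tgfb2*, a growth factor of the TGF-beta family (chr1:186622792-186705989), was at 1.03 and 0 CPM in E8.5 WT A and B. In E9.5 WT A to D it was at 58.4, 42.7, 62.4 and 42.1 CPM. The gene was thus nearly absent at E8.5 in every library and present in all at E9.5 (log2 fold change 6.13, SE 0.63, adjusted p = 2.70e-09), and null libraries followed with at most 2.49 CPM at E8.5 and 33.6 to 51.0 CPM at E9.5. *Eya4*, a member of the Eya coactivator family, went from 13.4 and 9.69 CPM to between 43.2 and 62.4 CPM (log2 fold change 1.95, SE 0.34, adjusted p = 7.43e-05). *Hey1*, a Notch target named here after its values were seen, went from 9.27 and 2.42 CPM to between 51.2 and 86.6 CPM (log2 fold change 3.26, SE 0.38, adjusted p = 4.06e-08). The largest rises by fold also included the protocadherin *Pcdh11x* (0 at E8.5, 8.53 to 30.3 CPM in E9.5 WT A to D), which kept its call in all 9 alternatives. The TGF-beta target *Pmepa1* and *Rgs9*, a regulator of G protein signalling, were called too but lost without either E8.5 WT library, as was *Spp1*, a secreted phosphoprotein. *Spp1* was at 4.33 and 25.5 CPM in E9.5 WT A and D and at 0 in WT B and C, as in both E8.5 WT libraries.

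Of the 34 otic patterning genes, 23 were tested in the placodal ectoderm, 7 rose and none fell (*Jag1*, *Fbxo2*, *Tbx2*, *Tbx3*, *Hmx2*, *Otx1* and *Col2a1*), with a median log2 fold change of 1.20 beside 0.01 over all genes tested, of which 2.1% were called higher. A gene at 0 in both E8.5 WT libraries, such as *Tbx2*, passed the count filter through other libraries and could only rise. The number of rises and the median are thus a description and no test of the list. *Tbx2*, *Otx1* and *Col2a1* were called under every alternative that gave a value. *Hmx2* and *Fbxo2* kept the call in 4 of 9 alternatives, *Tbx3* in 5 of 8 and *Jag1* in 6 of 10, with *Hmx2* (adjusted p = 0.128), *Fbxo2* (0.0572) and *Tbx3* (0.172) lost with libraries of more than 5 cells and *Jag1* (0.393) with DESeq2. *Tbx2* was at 0 in both E8.5 WT libraries and at 21.6 and 23.3 CPM in E9.5 WT A and D, at least 13.4-fold higher. In the smaller libraries E9.5 WT B and C *Tbx2* was at 31.3 and 0 CPM. *Otx1*, a head patterning factor, rose with a log2 fold change of 1.80 (SE 0.29, adjusted p = 3.85e-05) and *Col2a1*, the main chain of collagen II, with 1.57 (SE 0.21, adjusted p = 8.52e-07). *Tbx2* did not exceed 31.3 CPM in any placodal library, beside at least 55.4 CPM in every otic library. *Otx1* ranges overlapped, at 34.1 to 77.6 CPM in E9.5 WT placodal and 0 to 38.5 CPM in E9.5 WT otic libraries.

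*Pax3*, the trigeminal placode gene, was at 57.7 and 41.2 CPM at E8.5 and at 11.9, 17.1, 2.01 and 16.6 CPM in E9.5 WT A to D (log2 fold change -1.93, SE 0.33, adjusted p = 6.20e-05). It was the only tested gene of 6 in its list. *Tfap2a*, an ectodermal and neural crest regulator, was at 64.9 and 64.2 CPM at E8.5 and at 11.9 and 25.5 CPM in E9.5 WT A and D (log2 fold change -1.91, SE 0.31, adjusted p = 7.26e-05). In E9.5 WT B and C it was at 42.7 and 68.5 CPM. WT C thus lay above both E8.5 libraries, and *Tfap2a* was not called with libraries of more than 5 cells. *Foxc1*, a forkhead factor of the periocular tissues, fell by 2.77 on the log2 scale (SE 0.45, adjusted p = 5.08e-05). *Car4* and *Car2*, both carbonic anhydrases, fell by 3.19 and 2.89, and *Hapln1* fell by 3.84. *Car2* fell in both tissues, and *Hba-x* also fell between these stages.

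*Pax6*, the master regulator of eye and lens development, was at 132 and 177 CPM at E8.5 and between 69.3 and 101 CPM at E9.5, without overlap, but was not called (log2 fold change -0.98, SE 0.43, adjusted p = 0.345). *Six3* passed the p threshold with a log2 fold change of -0.51 (adjusted p = 0.0142), under the fold threshold. *Pitx1* was at 139 and 128 CPM and then between 113 and 216 CPM (log2 fold change 0.11, adjusted p = 0.761). Of 13 tested anterior placode genes, *Emx2*, a homeobox gene of the olfactory epithelium and forebrain, was the one called (log2 fold change 2.40, SE 0.51, adjusted p = 0.00238), where 2.1% of all genes tested were called higher. The median of the list was -0.24, opposite to *Emx2*. *Emx2* kept the call in 6 of 10 alternatives and was lost with libraries of more than 5 cells (0.203), with DESeq2 (0.0709) and without E8.5 WT A (0.0532) or E9.5 WT A (0.0953). The glucose list, drawn up after the values had been seen, had 2 genes lower of 16 tested, *Slc2a1* (log2 fold change -1.26) and *Slc16a3* (-1.16). Its median was -0.67 beside 0.01 over all genes tested, of which 1.12% were called lower.

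**Figure D4:**
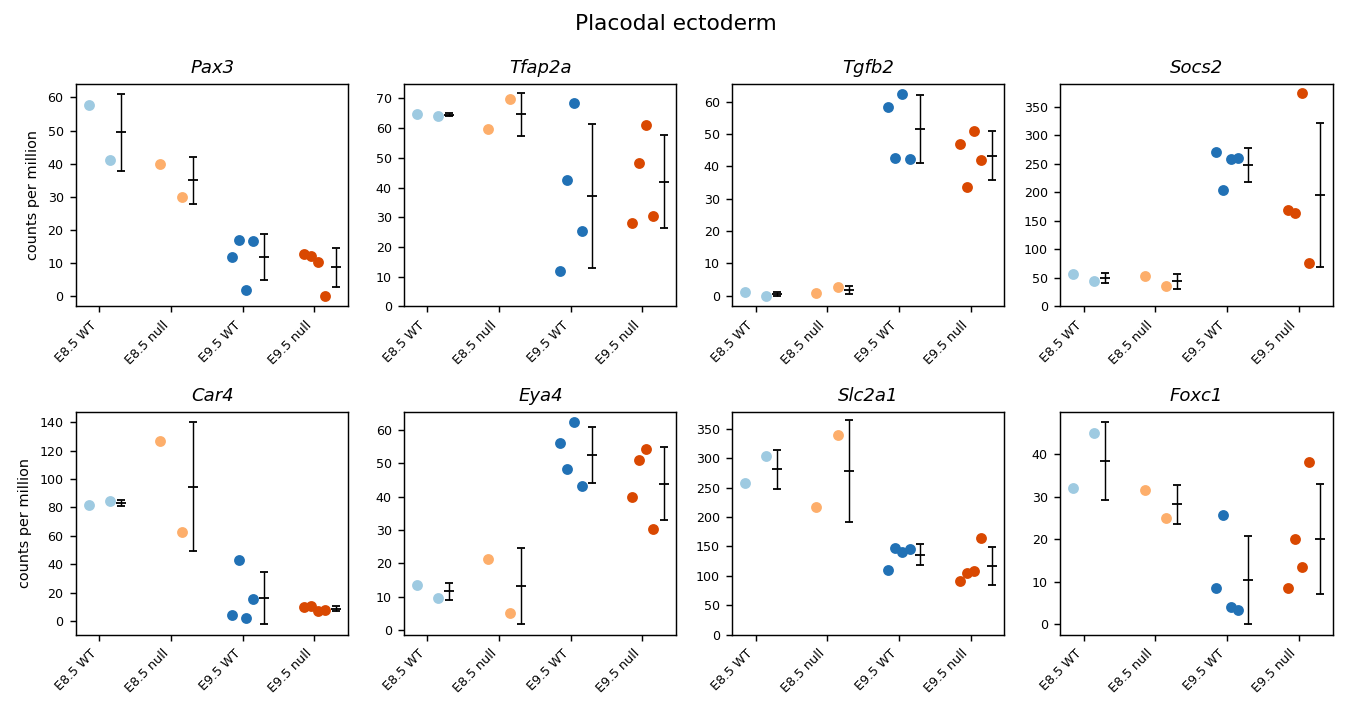
Levels of 8 genes in the placodal ectoderm (CPM, y axis, linear from 0), 1 point per library in the 4 groups, with mean ± SD at the right of each group. *Tgfb2*, *Socs2* and *Eya4* are higher and *Pax3*, *Car4*, *Slc2a1* and *Foxc1* lower in E9.5 WT, while *Tfap2a* in E9.5 WT C lies above both E8.5 WT libraries.

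Without E9.5 WT A the count was 129 genes, without E9.5 WT D it was 258, and DESeq2 called 93. *Emx2*, *Jag1*, *Slc16a3* and *Fbxo2* were among those lost without E9.5 WT A (adjusted p = 0.0760 for *Slc16a3* and 0.300 for *Jag1*). *Tgfb2*, *Socs2*, *Eya4*, *Pax3*, *Foxc1*, *Car2*, *Car4*, *Hapln1*, *Otx1* and *Col2a1* were called under every alternative.

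The third comparison set null against WT cells within each tissue. Few genes differed in the otic placode. At E9.5, 6 of 5526 genes were called (0.109%), 4 higher and 2 lower in null, and at E8.5 it was 1 gene (0.0181%). Over all libraries with both stages averaged, 3 genes were called (0.0543%). Without E8.5 null B the counts were 3 at E8.5 and 5 averaged, and without E9.5 WT C or D they were 3 and 5 at E9.5. None of the 27 otic patterning, 8 pan-placodal and 4 posterior placode genes tested was called at either stage. With 0.109% and 0.0181% of all genes called, nothing about these lists is read from that. *Pax2* at E9.5 was between 34.0 and 70.4 CPM in null and between 45.4 and 78.6 CPM in WT (log2 fold change -0.20, SE 0.27, adjusted p = 1). *Sox9* at E9.5 was between 204 and 443 CPM in null and between 383 and 541 CPM in WT, a log2 fold change of -0.50 (SE 0.20) that did not pass (adjusted p = 1).

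*Cwc22*, a splicing factor of the exon junction complex (chr2:77881159-77946375), was at 31.4, 38.9, 38.5 and 54.4 CPM in E9.5 WT and at 173, 251, 184 and 171 CPM in E9.5 null. The log2 fold change was 2.19 (SE 0.24, adjusted p = 5.60e-08), and at E8.5 it was 1.61 (SE 0.37, adjusted p = 0.0976). *Zdbf2*, an imprinted gene (chr1:63273265-63314576), was between 39.3 and 87.6 CPM in E9.5 WT and between 148 and 258 CPM in E9.5 null (log2 fold change 1.54, SE 0.23, adjusted p = 5.76e-05). Both kept their E9.5 calls in all 14 alternatives.

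*Grb10*, an imprinted adaptor of growth factor receptors (chr11:11930508-12038683), was lower in null. It was at 296, 286, 341 and 314 CPM in E9.5 WT and at 12.2, 0, 39.9 and 25.2 CPM in E9.5 null (log2 fold change -4.14, SE 0.57, adjusted p = 0.0449). The 2 groups were far apart, but the call was lost on leaving out any 1 of the 8 libraries, and the highest adjusted p was 0.462, on leaving out E9.5 null A. At E8.5 null A was at 12.9 CPM and null B at 166 CPM, beside 164 and 177 CPM in WT. *Mt2*, a metallothionein (adjusted p = 0.0449, log2 fold change 1.93), and *Klhl8*, a ubiquitin ligase adaptor (adjusted p = 0.0312, -1.56), were also called at E9.5. Both were lost with DESeq2 (0.478 and 0.103) and without E9.5 WT A (0.482 and 0.271), WT C (0.218 and 0.155) or null A (0.408 for both). *Klhl8* was at 113, 117, 148 and 51.4 CPM in WT and at 33.8, 13.6, 9.97 and 57.9 CPM in null, so the groups overlapped.

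In the placodal ectoderm at E9.5, 17 of 8510 genes were called (0.2%), 11 higher and 6 lower in null, from 2 null and 2 WT libraries with more than 15 cells. The WT libraries were A and D, which had almost no *Xist* and are not shown to be separate embryos. With libraries of more than 5 cells 9 genes were called. *Cwc22*, also called in the otic placode, was among the 17, together with *Igf2*, *Pitx1* and *Isl1*. Of 13 anterior placode genes tested, *Pitx1* rose and none fell, with a median log2 fold change of 0.91 beside -0.00 over all genes tested. The median of the same list was 0.05 at E8.5 and 0.22 averaged over stages in all 12 libraries, with 0 of 13 called in both. The 3 tested neural tube markers had a median of -0.88 at E9.5, -0.19 at E8.5 and -0.32 averaged over stages, with 0 called in each. *Pax6* is on both the neural tube and the anterior placode list, so the lists are not separate sets. The part of neural tube markers in the result was not tested. Of 5 tested sensory neurogenesis genes, *Isl1* rose. None of the 11 pan-placodal, 5 posterior placode, 23 otic patterning and 9 surface ectoderm genes tested was called. With 0.2% of all genes called, nothing about these lists is read from that.

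*Igf2*, an imprinted growth factor (chr7:142650766-142666816), was at 79.0, 82.5, 113 and 84.3 CPM in E9.5 WT and at 231, 260, 231 and 266 CPM in E9.5 null. The gap between the groups was wider than the range within either (log2 fold change 1.55, SE 0.17, adjusted p = 3.23e-08), and the call was kept in all 10 alternatives. *Cwc22* was between 25.6 and 50.3 CPM in WT and between 136 and 194 CPM in null (log2 fold change 2.001, SE 0.19, adjusted p = 1.14e-09). *Hist1h4i*, a histone H4 gene whose close copies can share reads, was lower, between 54.0 and 97.6 CPM in WT and between 15.2 and 38.0 CPM in null (log2 fold change -2.32, SE 0.27, adjusted p = 3.13e-07). These also kept their calls in all 10 alternatives.

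At E8.5, 1 gene of 8123 was called (0.0123%), as it was without E8.5 null B, and *Cwc22* was at 58.7 and 67.8 CPM in WT and 96.1 and 107 CPM in null without passing the test (log2 fold change 0.67, SE 0.22, adjusted p = 0.966). *Zdbf2* passed the p threshold at E9.5 (log2 fold change 0.99, adjusted p = 1.76e-04), just under the fold threshold. *Grb10* was between 288 and 327 CPM in E9.5 WT and between 0 and 67.1 CPM in E9.5 null, a log2 fold change of -3.01 that the test did not call (adjusted p = 0.221).

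*Pitx1*, a homeobox factor of the oral ectoderm and pituitary (chr13:55825051-55836192), was at 146, 216, 113 and 171 CPM in E9.5 WT A to D and at 312, 349, 74.7 and 247 CPM in E9.5 null A to D. In the 4 libraries tested (null A and B, WT A and D) the log2 fold change was 1.03 (SE 0.13, adjusted p = 3.11e-06). Null C, with 6 cells, lay below all WT libraries, and with libraries of more than 5 cells *Pitx1* was not called (log2 fold change 0.74, adjusted p = 0.956). It also fell under the fold threshold without WT A (0.90) or null B (0.96). *Isl1*, a LIM homeobox factor of sensory neurons and pituitary progenitors (chr13:116298281-116309689), was at 37.9, 34.1, 30.2 and 22.2 CPM in WT and at 91.2, 75.2, 37.4 and 83.6 CPM in null. The log2 fold change was 1.48 (SE 0.23, adjusted p = 1.72e-04), kept with libraries of more than 5 cells but lost with DESeq2 (0.407) and without WT D (0.0740).

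Pituitary genes were uneven among the null libraries. *Hesx1* and *Lhx3*, regulators of the pituitary primordium, were at 83.2 and 24.2 CPM in E9.5 null B and at 118 and 64.6 CPM in null D. In null A they were at 6.99 and 4.52 CPM and in null C at 0. In E9.5 WT neither exceeded 2.01 CPM. Neither gene was called. In null D all 31 *Hesx1* UMIs came from 1 of its 7 cells.

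Of the other genes called in placodal ectoderm at E9.5, *Pttg1*, the securin that guards sister chromatids, was lower in null at 57.1 and 61.7 CPM in null A and B beside 160 to 192 CPM in WT (log2 fold change -1.61, SE 0.17, adjusted p = 1.95e-08). In null C and D it was at 112 and 213 CPM, and it was not called with libraries of more than 5 cells (adjusted p = 0.846). *Csrp2*, a LIM domain protein, was higher (log2 fold change 1.11) and was also lost there (0.956). *Ebf1*, *Krt19*, *Golga3*, *Ntm* and *Kctd12b* were higher and *Tfap2b*, *Prrx2*, *Snhg12* and *Pusl1* lower, with adjusted p from 0.00735 to 0.049, and each was lost with DESeq2. *Golga3* was between 311 and 597 CPM in the otic cells of E9.5 WT A and D and between 13.0 and 44.0 CPM in WT B and C, and was not called there. Without WT D 8 genes were called in the placodal ectoderm, without null A 35 and without null B 29.

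Over both stages and all 12 libraries, 11 of 8123 placodal genes were called (0.135%), 5 higher and 6 lower. The count was 12 without E8.5 null B and 11 without either E9.5 WT C or D. *Cwc22* (log2 fold change 1.35), *Igf2* (1.20), *Hist1h4i* (-1.68) and *Tfap2b* (-2.65) kept the call in all 16 alternatives, among them the fit without E8.5 null B. *Tfap2b*, an AP-2 factor of the facial ectoderm and neural crest, was at 41.2 and 23.0 CPM in E8.5 WT, 10.2 and 9.98 CPM in E8.5 null, 7.58 to 19.9 CPM in E9.5 WT and 0 to 1.23 CPM in E9.5 null. *Zdbf2* (1.08), *Phtf2* (1.27), *Akr1e1* (-2.67), *Cd59a* (-1.22), *Pusl1* (-1.73) and *Hist1h2bj* (-1.48) were each lost without E8.5 null A. Whether the genotype effect changed with stage was tested by an interaction term. It gave 0 called genes in the otic placode (0%), with 206 at an unadjusted p under 0.05 in edgeR, and 0 in the placodal ectoderm (0%), with 334. DESeq2 also called 0 in both.

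**Figure D5:**
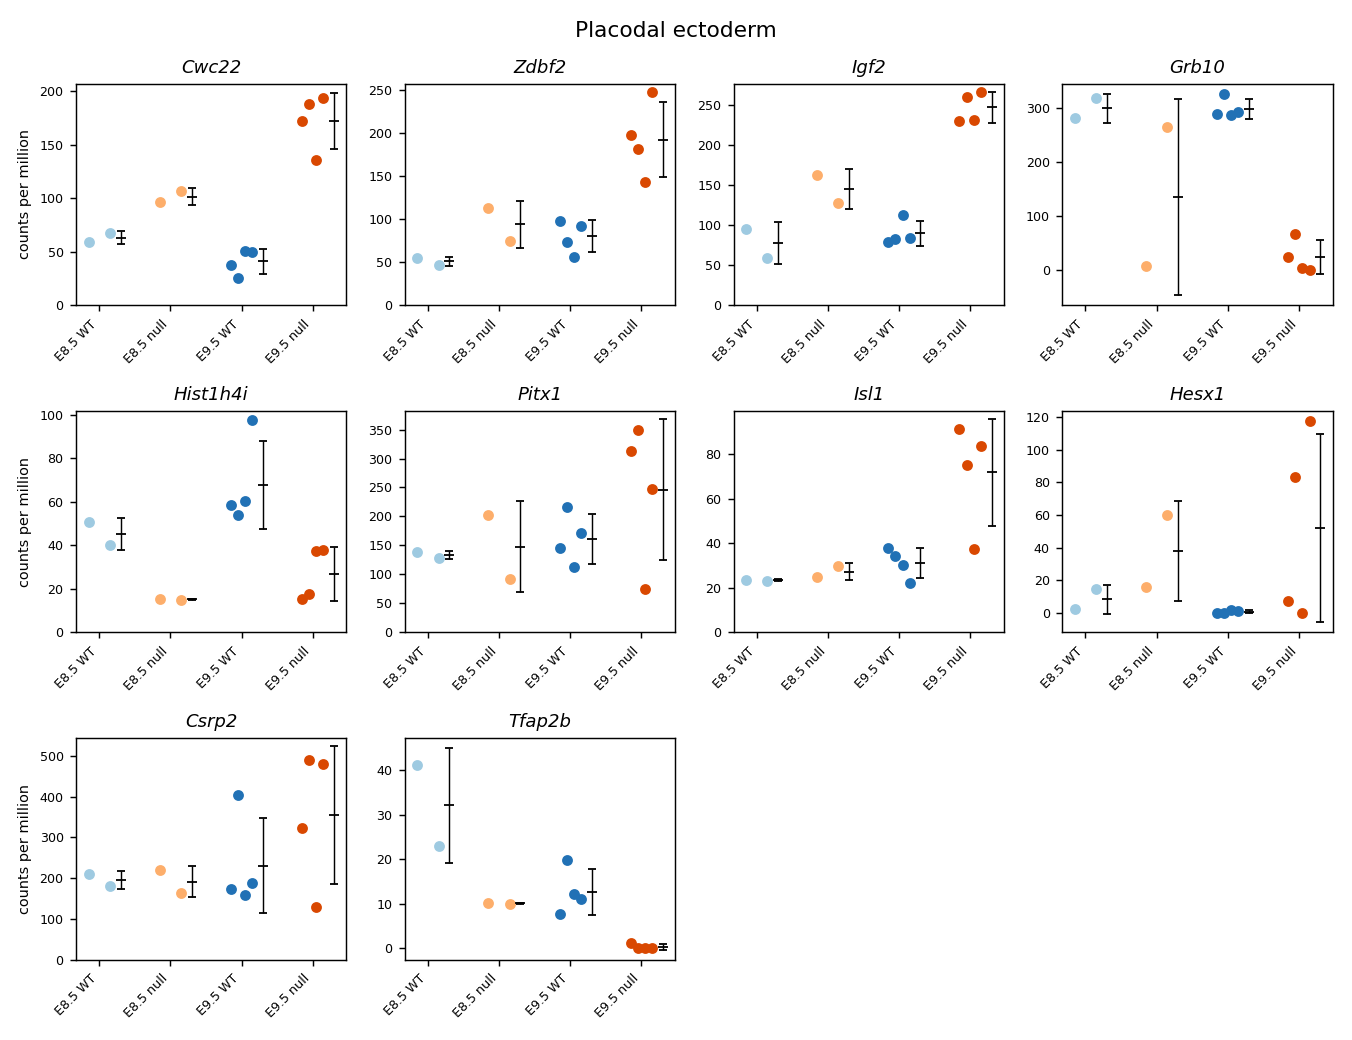
Levels of 10 genes in the placodal ectoderm (CPM, y axis, linear), 1 point per library in the 4 groups, with mean ± SD at the right of each group. *Cwc22* and *Igf2* in E9.5 null lie above every WT library, *Grb10* in E8.5 null B (264 CPM) lies with WT, and *Pitx1*, *Isl1* and *Csrp2* have 1 low null library at E9.5.

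The STAT pathway list has 18 genes, of which 5 were tested in the otic placode and 10 in the placodal ectoderm. No tested member was called between genotypes in either tissue. Of all genes tested, 0.0123% to 0.2% were called between genotypes, so nothing about the pathway is read from that. *Socs3*, the feedback inhibitor and direct target of STAT3, lay between 0 and 27.2 CPM in otic and between 0 and 17.5 CPM in placodal libraries. In placodal cells at E9.5 it was between 7.76 and 12.1 CPM in WT and between 11.4 and 17.5 CPM in null (log2 fold change 0.82, SE 0.51, adjusted p = 0.920). *Socs2*, an inhibitor of growth hormone signalling induced mainly through STAT5, was the member with the clearest pattern in the placodal ectoderm (chr10:95385362-95417180). It was at 56.7 and 43.6 CPM in E8.5 WT and at 272, 205, 258 and 261 CPM in E9.5 WT A to D (log2 fold change 2.27, SE 0.17, adjusted p = 1.002e-12). In E9.5 null A to D it was at 169, 164, 374 and 76.0 CPM. Null C lay above WT, and null A, B and D lay below it. The placodal tests of null against WT at E9.5 used only null A and B and WT A and D, so null C did not enter. For *Socs2* they gave a log2 fold change of -0.70 (SE 0.14, adjusted p = 0.00462), under the fold threshold. In the otic placode *Socs2* was between 154 and 181 CPM in E9.5 WT and between 54.3 and 188 CPM in E9.5 null (adjusted p = 1). *Jak1*, a kinase of the cytokine receptors, differed by -0.10 (SE 0.30) in otic and 0.41 (SE 0.30) in placodal cells at E9.5 on the log2 scale and was not called.

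The last comparison used the embryonic stage transferred from the atlas, averaged over the cells of a library. In the otic placode the mean was 8.73 ± 0.15 (SD, n = 2) in WT and 8.71 ± 0.21 (n = 2) in null at E8.5. At E9.5 the means were 8.76 ± 0.11 (n = 4) in WT and 8.75 ± 0.24 (n = 4) in null. The difference at E9.5 was -0.01 days (exact two-sided permutation test, p = 0.914). In the placodal ectoderm at E9.5 it was 0.02 days over the 2 null and 2 WT libraries with more than 15 cells (exact permutation p = 0.667) and 0.07 days over all 8 libraries (exact permutation p = 0.143). With 2 against 2 libraries the smallest exact p is 0.3333, so those tests could not pass. The median cell mapped to 8.75 days in the otic placode at both stages, and to 8.5 days at E8.5 and 8.75 days at E9.5 in the placodal ectoderm.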

How the data were processed

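The authors mapped 3′ single-cell reads to mm10 with Cell Ranger, using a GRCm38 annotation extended by the tdTomato sequence, and deposited raw UMI counts per gene and cell. Per the study's methods, cells were filtered on UMIs, genes, percent of mitochondrial reads and percent of ribosomal reads, doublets were called with scds, and cell types and stages were transferred from an atlas of mouse gastrulation. The deposited mapping score is the fraction of nearest atlas cells that carried the transferred type, and the mitochondrial percent was taken as the authors give it.

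Cells kept here passed the authors' filter and were not called doublets. WT-sorted cells with a tdTomato UMI were removed. Counts were summed per library and cell type and tested with edgeR 4.0.16 (filterByExpr, TMM, robust quasi-likelihood test, R 4.3.3) over all genes kept, with Benjamini-Hochberg adjustment. All adjusted p-values for genes and cell shares come from these fits, and SE is the absolute log2 fold change divided by the square root of F. Ribosomal, mitochondrial, globin and other noisy genes were left out of tests (8178 of 29453), and a list of imprinted genes was not removed. Libraries needed more than 15 cells of a type. In the otic placode more than 2 cells were required, chosen after the cell numbers had been seen, since more than 15 left too few libraries. In the placodal ectoderm more than 5 were required for E8.5, the average over stages and the interaction, for the same reason. The minimum of more than 15 left 2 libraries in each E9.5 placodal group, and the spread was shared over all groups in the fit. Counts were also simulated for E9.5 null against WT, with the same mean of a gene in all groups and a spread set by expression level. On these, 96% of 4-fold and 41% of 2-fold changes were recovered in the otic placode and 90% and 41% in the placodal ectoderm. Spread particular to a gene and library differences besides depth were left out, so recovery in the real counts was not measured.

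Cell shares were tested by edgeR over all types with at least 20 cells. Alternatives were DESeq2 1.42.0, its size factors, no filter on low counts, other minimums of cells, no fold threshold, only the groups compared, tdTomato-negative cells left out of null, and each library left out. The cell types and gene lists were chosen with earlier results of these data known. Beyond the lists, genes were named where called, apart between groups and among the 10 largest folds in a direction. No columns of per-sample values were left unused (0). Some genes that met this rule are not reported here, although counts of genes and lists include them.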

Additional observations from a re-analysis of the deposited data

Results flagged for a closer look

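Of 112 groups of 4 libraries examined, 10 had 1 library whose gap to the next was above Dixon's 95% critical share of the range, and chance gives about 1 in 20 groups. In the otic placode these were *Col9a1* at 19.9 CPM in E9.5 null C (the others 49.6 to 54.3 CPM), *Cwc22* at 251 CPM in E9.5 null B (171 to 184 CPM) and *Lmx1a* at 165 CPM in E9.5 WT C (75.9 to 81.6 CPM). In the placodal ectoderm of E9.5 WT they were *Csrp2* at 404 CPM and *Grb10* at 327 CPM in library B, *Igf2* at 113 CPM and *Lhx3* at 2.01 CPM in library C, and *Hist1h4i* at 97.6 CPM in library D. In E9.5 null placodal cells *Six3* was at 334 CPM in library D (224 to 231 CPM in the others) and *Tfap2b* at 1.23 CPM in library A (0 in the others). For *Lhx3* (1 UMI) and *Tfap2b* (3 UMIs) the other 3 libraries were at 0, so any count above 0 passes this rule and nothing is read from it.

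Signals outside the comparisons were 4 placodal cells in E7.5 null A, 0.184% of that library (95% Wilson interval 0.0716% to 0.473%) with a median mapping score of 0.5, against none in E7.5 WT. A further 4 WT-sorted cells of these types carried a tdTomato UMI and had been removed. The cause of these values was not tested.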

How the results depend on the processing

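No paired analysis was possible because the library names in the cell table match no sample title, so no label ties a null library to the WT library of the same embryos. Of 1238 alternative values of the 112 gene results, 1020 kept direction and side of the threshold and 218 lost the call, with 42 gene results kept in every alternative. Counts of called genes moved as follows. With DESeq2 they were 0 in the otic placode at E8.5, 7 in the placodal ectoderm at E9.5, 7 averaged over stages and 93 between WT stages. Without a filter on low counts they were 2, 13, 8 and 89 in the otic placode (E8.5, E9.5, average, WT stages), and 10 and 37 in the placodal ectoderm (E8.5 and E9.5), with 4 for the interaction. Without the fold threshold they were 2 (E8.5), 5 (average) and 110 (WT stages) in the otic placode and 31 (E9.5) and 510 (WT stages) in the placodal ectoderm. With only the groups compared in the fit they were 0 in otic and 9 in placodal cells at E8.5. With more than 5 cells per library they were 105 between WT stages in otic and 9 at E9.5 in placodal cells. More than 30 cells could not be run, and more than 15 left no otic fit.

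Leaving out 1 library at a time gave 0 to 3 (E8.5), 3 to 6 (E9.5), 3 to 5 (average), 18 to 68 (WT stages) and 0 to 1 (interaction) otic calls, and 0 to 3, 8 to 35, 6 to 13, 129 to 258 and 0 to 3 placodal calls. The log2 ratios of cell shares ranged from -0.57 to -0.33 and from -0.04 to 1.10 for otic cells, and from -0.14 to 0.10 and from -0.37 to 0.55 for placodal cells, at E8.5 and E9.5. Those that changed direction were placodal cells without E8.5 null A (0.0951), and otic (-0.0404) and placodal cells (-0.373) without E9.5 null A. The difference in atlas stage ranged from -0.17 to 0.13 and from -0.098 to 0.097 days in otic cells, and from -0.08 to 0.13 and from -0.01 to 0.06 days in placodal cells. The otic value at E9.5 turned positive without WT A (0.00157), WT C (0.0247) or null B (0.0966). The cause of these changes was not tested. With 3 to 16 otic cells in most libraries, low genes could not be tested.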
